A study of Homo sapiens with 5 samples.

Results

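The NRF2 pathway genes described here were NFE2L2, KEAP1, NQO1, GCLC, GCLM, TXNRD1, SRXN1, AKR1C1, AKR1C2 and AKR1B10, 10 of the 61220 human genes with a listed transcript. They are the regulator, its inhibitor and known target genes, listed by name with no threshold on their values, though with earlier results of these data known. The series compared RNA of NCI-H1975 and HCC827, established human lung adenocarcinoma cell lines that both carry activating EGFR mutations. Each line was grown by itself in RPMI medium with serum to near confluency, without drug treatment named in the labels, and gave a single RNA preparation. By the labels, the RNAs carried synthetic sequin transcripts of mix A for NCI-H1975 and mix B for HCC827. The RNAs were combined by mass, and the 5 libraries are named by their NCI-H1975 to HCC827 ratio. The ratios run from 100:0 through 75:25, then 50:50, then 25:75, to 0:100. Poly(A) RNA was turned into PCR-amplified cDNA and read on a nanopore PromethION flow cell, and every ratio had 1 library.

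NRF2, the protein of NFE2L2, is a transcription factor that answers oxidants and electrophiles. KEAP1 holds it in the cytoplasm and hands it to a CUL3 ubiquitin ligase for destruction, and electrophiles that modify KEAP1 cysteines let NRF2 accumulate, enter the nucleus and, with a small MAF protein, bind antioxidant response elements. Because this control acts largely on NRF2 protein, the mRNA level of NFE2L2 is not a measure of NRF2 activity. In lung adenocarcinoma, mutations of KEAP1 or NFE2L2 that free NRF2 are known, and NQO1 and the aldo-keto reductases are commonly read as its target genes.

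The core of the antioxidant response element, TGAC followed by any 3 bases and GCA, was searched for on both strands in the 1000 bases before each RefSeq start on GRCh38. It was found for 5 of the 9 members with a start in the RefSeq table, and for 11.4% of 27305 genes in all. A match is a run of letters and not a measured binding site. The 5 windows are shown because they hold the letters of this core, and whether NRF2 binds them was not tested. Each is 30 bases, 5′ to 3′ on the strand of its gene, with the match in capitals.
NQO1: gcagtcacagTGACTCAGCAgaatctgagc
GCLM: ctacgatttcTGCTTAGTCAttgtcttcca
KEAP1: cgcccggctcTGCTTAGTCAtggtgacctg
TXNRD1: agtggatttcTGCTTTGTCAttctgactct
GCLC: gacaggtcatTGCTCTGTCAacacatattt
The NQO1 window, chr16:69726996-69727025 on the minus strand, began its match 455 bases before the start and overlapped exons of the neighbouring NQO1-DT. The GCLM window, chr1:93909446-93909475 on the minus strand, lay 35 bases before the start and overlapped an exon of the transcript GCLM-204. The KEAP1 window, chr19:10502784-10502813 on the minus strand, lay 32 bases before one of its starts, in an exon of KEAP1-202. The TXNRD1 window, chr12:104286919-104286948 on the plus strand, lay 103 bases before one of its starts, in exons of 3 of its transcripts, TXNRD1-201 and TXNRD1-210 among them. The GCLC window, chr6:53545953-53545982 on the minus strand, lay 871 bases before the start and in no exon. No match was in the windows of NFE2L2, SRXN1, AKR1C1 and AKR1C2, which says only that these letters are not there. AKR1B10 was not matched in the table.

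The libraries held 2932250 to 4058751 reads. From 100:0 to 0:100 the libraries had 5475, 4678, 2830, 1269 and 0 sequin reads. The 0:100 library thus had none, although its label names mix B. Along the series the mitochondrial share of reads went from 5.64% to 8.85% and the mean length of the transcripts to which reads were assigned went from 2581 to 2180 bases. Levels below are in CPM, the reads of a gene per 1000000 reads of the library after its total was rescaled by the trimmed mean of M-values (TMM). All 6 epithelial markers were detected, with 377 to 381 CPM for EPCAM in the pure libraries, and 5 of the 6 rose (summed level 5657 to 16027 CPM). The 3 lung markers NKX2-1, NAPSA and SFTA2 rose together, and NAPSA with 7 reads and SFTA2 with 2 were nearly absent from the 100:0 library. The leukocyte markers PTPRC and CD3E were at 0 everywhere, and PECAM1 and VWF together never passed 1.42 CPM. Of the fibroblast markers, DCN was at 0 while COL1A1 and COL1A2 fell (summed level 188 to 7.17 CPM). The part of these shifts in the results below was not tested, except for transcript length. With a trend of the fold change with transcript length removed, 4 of 9 members were called, 2 in each direction. In that fit 5890 of all 13492 genes were called.

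Of the 10 genes, 9 reached 10 reads in 2 or more libraries and were tested, and AKR1C1 was not. For each, log2 expression was regressed on the share of HCC827 RNA by mass, and the slope, which is the fitted log2 difference between 100:0 and 0:100, was tested. It compares the RNA preparations of the lines, not cultures. In a mixture by mass the level itself, not its log2, goes in a straight line with the share. Where the lines differ much, the slope can therefore fall short of the ratio of the pure libraries. The slope of AKR1C2 was -2.61 while its pure libraries differed 30.1 times, with 1 read in 0:100. NQO1 and TXNRD1 rose towards HCC827, SRXN1 and AKR1C2 fell, and NFE2L2, KEAP1, GCLC, GCLM and AKR1B10 did not pass (edgeR quasi-likelihood test, adjusted p under 0.05 over all genes). These 4 calls of 9 stand beside 45.7% called among all 13492 genes tested, so the members' share was near the background. In single directions, 2 of 9 rose beside 23.5% of all genes, and 2 of 9 fell beside 22.3%. Their median slope was 0.07 against -0.03 over all genes. Of the 9 tested members, AKR1C2 alone differed by at least 2-fold between the pure libraries with a floor of 3 reads, beside 34.6% of all genes. The levels of NQO1 and TXNRD1 ran in order over the 5 libraries, 2 of 9 beside 28.5% of all genes, and with AKR1C2, 3 of 9 had the mixed libraries between the pure ones, beside 47.0%. Without the 0:100 library, NQO1 alone of the 9 tested members was called, beside 4068 of 13352 genes in all. In bulk RNA a lower share of cells with a transcript and less RNA of it per cell cannot be told apart.

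**Figure D1:**
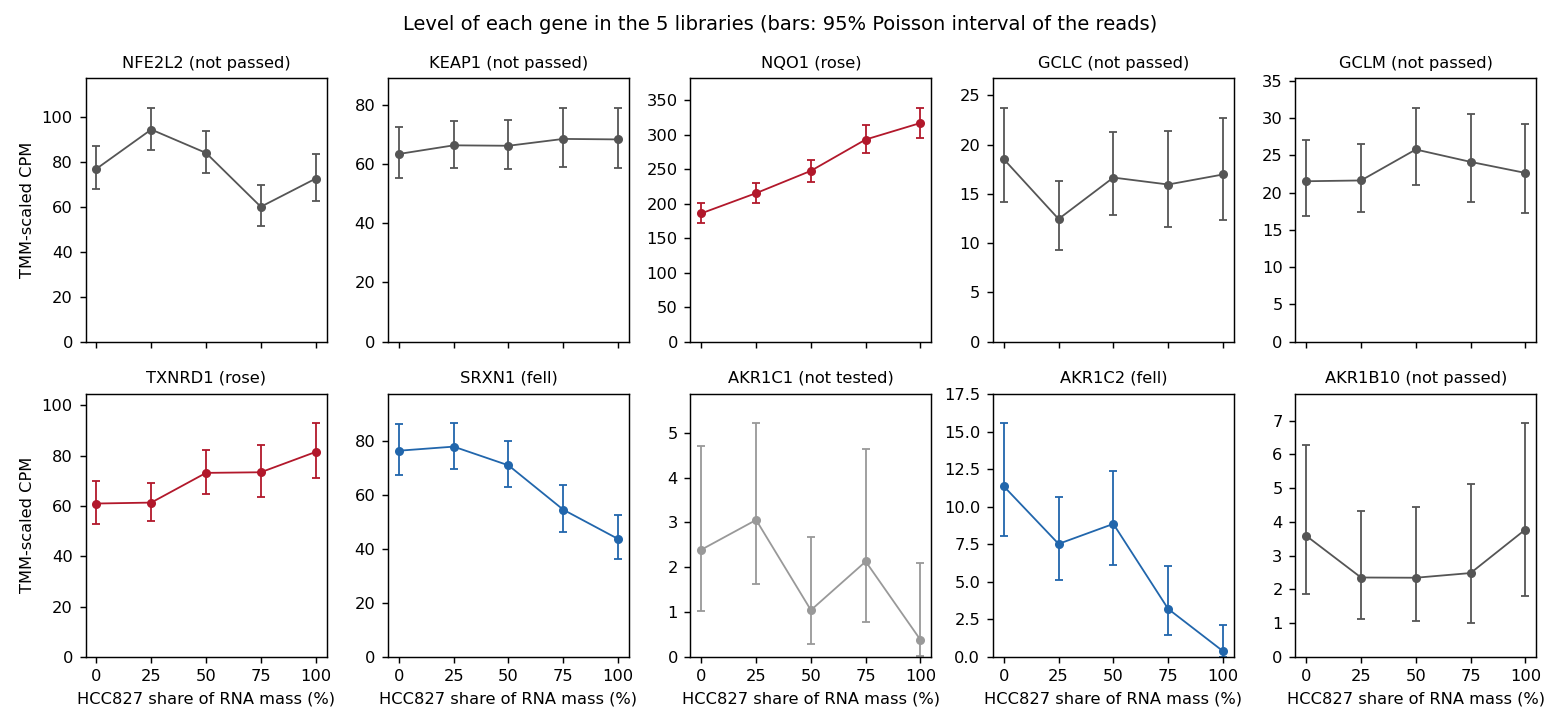
TMM-scaled CPM of each of the 10 members (vertical axis, from 0) against the HCC827 share of RNA mass in percent (horizontal axis), 1 point per library with the 95% Poisson interval of its reads. NQO1 goes up from 186 to 317 and SRXN1 from 76.5 down to 43.8, while KEAP1 stays between 63.4 and 68.5; the calls of NQO1 and SRXN1 hold with library totals.

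The regulator and its inhibitor did not pass the test. NFE2L2 (ENSG00000116044.17, chr2:177218667-177392756, minus strand) had 76.8, 94.3, 83.9, 59.9 and 72.4 TMM-scaled CPM from 100:0 to 0:100, on 257, 401, 322, 169 and 192 reads. The highest library was 75:25 and the lowest 25:75, so the mixed libraries lay outside the range of the pure ones. Its slope was -0.33 ± 0.20 (SE; adjusted p = 0.190, edgeR quasi-likelihood test), and HCC827 had 0.943 times the NCI-H1975 level in the pure libraries (95% exact counting interval 0.778 to 1.14). Without the 100:0 library the slope was -0.66 with an adjusted p of 0.0165 by the edgeR quasi-likelihood test. Scaled by library totals instead of TMM it was -0.75 with an adjusted p of 0.00691 by the same edgeR test. NFE2L2 overlaps AGPS, with 963 reads over the series, and HNRNPA3, with 5301, on the opposite strand, and whether the counting used strand was not given in the sources used here.

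KEAP1 (ENSG00000079999.14, chr19:10486125-10503558, minus strand), the adaptor that marks NRF2 for degradation, varied little across the series under TMM scaling. It had 63.4, 66.3, 66.1, 68.5 and 68.3 CPM, with the libraries within a few CPM of each other. The slope was 0.10 ± 0.14 (SE; adjusted p = 0.573, edgeR quasi-likelihood test) and turned to -0.31 with library totals and to -0.04 with the length trend removed. The pure libraries differed by 1.08 times (95% interval 0.879 to 1.32). In CPM of library totals KEAP1 had 72.3, 69.5, 65.5, 62.7 and 58.5, lower at each step. The slope with library totals had an adjusted p of 0.0831 by the same edgeR test. The number of NFE2L2 reads per KEAP1 read, which needs no scaling between libraries, was 1.21, 1.42, 1.27, 0.876 and 1.06, with no order along the series.

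NQO1 (ENSG00000181019.13, chr16:69706996-69726668, minus strand), the quinone reductase that carries out a reduction by a pair of electrons and so avoids semiquinone radicals, rose. It had 623, 917, 952, 827 and 841 reads, which came to 186, 216, 248, 293 and 317 CPM. Each library was higher than the one with less HCC827 RNA. The slope was 0.79 ± 0.11 (SE; adjusted p = 0.000129, edgeR quasi-likelihood test), and HCC827 had 1.70 times the NCI-H1975 level (95% interval 1.53 to 1.89). NQO1 was called with every alternative setting and with each library left out, with slopes from 0.38 with library totals to 0.87 without the 0:100 library. In CPM of library totals the ratio of the pure libraries was 1.28.

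GCLC and GCLM form glutamate-cysteine ligase, the rate-limiting enzyme of glutathione synthesis, as its catalytic and modifier subunits. GCLC (ENSG00000001084.13, chr6:53497341-53616970, minus strand) had 18.5, 12.5, 16.7, 16.0 and 17.0 CPM on 62, 53, 64, 45 and 45 reads. GCLM (ENSG00000023909.10, chr1:93885199-93909456, minus strand) had 21.5, 21.6, 25.8, 24.1 and 22.6 CPM on 72, 92, 99, 68 and 60 reads. For both, the pure libraries lay close together, with 75:25 the lowest for GCLC and 50:50 the highest for GCLM. Neither slope passed the edgeR quasi-likelihood test, with 0.03 ± 0.30 (SE; adjusted p = 0.954) for GCLC and 0.13 ± 0.24 (SE; adjusted p = 0.673) for GCLM, and both signs flipped with library totals. The interval of the ratio of the pure libraries ran from 0.610 to 1.37 for GCLC and from 0.734 to 1.50 for GCLM, so at this depth smaller differences could not be detected. GCLM reads per GCLC read were 1.16, 1.74, 1.55, 1.51 and 1.33, highest in 75:25 and lowest in 100:0.

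TXNRD1 and SRXN1 serve the peroxiredoxin and thioredoxin cycle, and they went in opposite directions. TXNRD1 (ENSG00000198431.18, chr12:104215779-104350307, plus strand), the cytosolic thioredoxin reductase that spends NADPH to reduce thioredoxin, had 204, 261, 281, 207 and 216 reads and 61.0, 61.4, 73.2, 73.4 and 81.5 CPM. It ran in order, but the neighbours 100:0 and 75:25, and 50:50 and 25:75, lay within 1 CPM of each other. Its slope was 0.44 ± 0.14 (SE; adjusted p = 0.0237, edgeR quasi-likelihood test) and HCC827 had 1.34 times the NCI-H1975 level (95% interval 1.10 to 1.63). The call was lost with library totals, where the slope was 0.03 (adjusted p = 0.885, edgeR quasi-likelihood test), and with the DESeq2 Wald test (adjusted p = 0.0784). In the edgeR quasi-likelihood test it was lost with no read minimum (adjusted p = 0.0620) and with protein-coding transcripts only (adjusted p = 0.0527). It was also lost in the edgeR quasi-likelihood test without the 100:0 library (adjusted p = 0.0605), without 75:25 (adjusted p = 0.0754) and without 0:100 (adjusted p = 0.133). TXNRD1 shares its place with the pseudogene RPL18AP3, with 42 reads, and with a gene on the opposite strand, ENSG00000257732, with 95.

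SRXN1 (ENSG00000271303.2, chr20:646615-653200, minus strand), the sulfiredoxin that repairs over-oxidised peroxiredoxins, fell. It had 256, 332, 273, 154 and 116 reads and 76.5, 78.0, 71.1, 54.6 and 43.8 CPM. The libraries with at least 50% NCI-H1975 RNA lay close together and the other libraries below them, lowest in 0:100. The slope was -0.82 ± 0.18 (SE; adjusted p = 0.00220, edgeR quasi-likelihood test), and NCI-H1975 had 1.75 times the HCC827 level (95% interval 1.40 to 2.20). Without the 0:100 library it was -0.61 with an adjusted p of 0.0533 by the edgeR quasi-likelihood test, and in each other alternative SRXN1 was called, with -1.23 under library totals. ENSG00000270299, which overlaps SRXN1 on the same strand, had 31 reads in all. NQO1 reads per SRXN1 read went 2.43, 2.76, 3.49, 5.37 and 7.25, and TXNRD1 reads per SRXN1 read went 0.797, 0.786, 1.03, 1.34 and 1.86. These ratios within a library went up at every step, apart from 100:0 to 75:25 for TXNRD1. They show unequal change of the genes, not which of them changed.

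AKR1C1, AKR1C2 and AKR1B10 are NADPH-dependent aldo-keto reductases that reduce ketosteroids, carbonyls and lipid aldehydes. AKR1C1 and AKR1C2 are neighbours on chromosome 10 whose coding sequences of 969 bases were 98.0% identical and differed at 19 bases, while AKR1C3 differed from AKR1C1 at 83 and from AKR1C2 at 87. Reads of one can therefore be assigned to the other. The stretch of 90 coding bases with most AKR1C1 to AKR1C2 differences, 10 of the 19, is shown. The other differences lie elsewhere in the coding sequence, and which bases the reads covered was not tested. The stretch covers coding bases 73 to 162, across exons 1 and 2, and capitals mark positions that the 3 genes do not all share.
AKR1C1: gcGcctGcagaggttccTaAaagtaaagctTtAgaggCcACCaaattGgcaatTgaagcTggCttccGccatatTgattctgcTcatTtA
AKR1C2: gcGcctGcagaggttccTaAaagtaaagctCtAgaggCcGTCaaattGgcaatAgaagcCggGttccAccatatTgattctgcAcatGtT
AKR1C3: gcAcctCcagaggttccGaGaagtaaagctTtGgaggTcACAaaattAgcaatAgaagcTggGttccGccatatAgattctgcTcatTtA
On GRCh38 the stretch spans chr10:4963517-4965991 on the plus strand for AKR1C1, chr10:5001604-5003763 on the minus strand for AKR1C2 and chr10:5094517-5096487 on the plus strand for AKR1C3, intron included.

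AKR1C2 (ENSG00000151632.18, chr10:4987775-5018031, minus strand) fell. It had 38, 32, 34, 9 and 1 reads, or 11.4, 7.52, 8.85, 3.19 and 0.377 CPM. The 3 libraries with at least 50% NCI-H1975 RNA were well above the other libraries, and 0:100 was at a single read. The slope was -2.61 ± 0.67 (SE; adjusted p = 0.00677, edgeR quasi-likelihood test), and NCI-H1975 had 30.1 times the HCC827 level, with a 95% counting interval of 5.09 to 1220 that the single read makes wide. Without the 0:100 library the slope was -1.70 with an adjusted p of 0.0679 by the edgeR quasi-likelihood test.

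AKR1C1 (ENSG00000187134.14, chr10:4963253-4983283, plus strand) had 8, 13, 4, 6 and 1 reads and was left out by the read minimum, since only 75:25 reached 10. Its pure libraries gave a ratio of 6.34 in favour of NCI-H1975 with a 95% counting interval of 0.850 to 281. Summing AKR1C1, AKR1C2 and AKR1C3 removes the question of how reads were split among them. The sum was 72, 64, 61, 24 and 18 reads and fell with a slope of -1.56 ± 0.33 (SE; adjusted p = 0.00207, edgeR quasi-likelihood test). AKR1C3 by itself, with 26, 19, 23, 9 and 16 reads, did not pass (slope -0.49 ± 0.54 SE, adjusted p = 0.490, edgeR quasi-likelihood test), and AKR1C4 had 0 reads in every library.

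AKR1B10 (ENSG00000198074.10, chr7:134527567-134541412, plus strand), an aldo-keto reductase that also reduces retinal, was close to the read minimum in both lines. It had 12, 10, 9, 7 and 10 reads, or 3.59, 2.35, 2.34, 2.48 and 3.77 CPM, with the pure libraries highest. The slope was 0.07 ± 0.67 (SE; adjusted p = 0.941, edgeR quasi-likelihood test), a standard error too wide to tell a 2-fold difference from none, and its sign flipped with library totals. The coding sequence of its neighbour AKR1B15 was 85.9% identical, and AKR1B15 had 8, 10, 3, 2 and 0 reads. Their sum had a slope of -0.84 (adjusted p = 0.237, edgeR quasi-likelihood test). Of the AKR1B10 reads of the series, 52.1% lay on the protein-coding AKR1B10-201, with 10, 4, 5, 2 and 4 reads. AKR1B10-203, which has no defined coding sequence, had 1, 3, 2, 2 and 5. AKR1B10 was therefore not tested with protein-coding transcripts only, and the similar gene levels of the lines do not describe its coding transcript.

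The scaling between libraries set how the smaller differences read. Under library totals the median slope of all genes was -0.45, and 26.0% of calls were rises against 51.3% under TMM. Under library totals 4 of the 9 members were called as well, beside 51.3% of all genes. NQO1 alone rose, 1 of 9 beside 13.4%, and NFE2L2, SRXN1 and AKR1C2 fell, 3 of 9 beside 37.9%. NQO1, SRXN1 and AKR1C2 were thus called in the same direction with both scalings. TXNRD1 passed with TMM and NFE2L2 with library totals, and KEAP1, GCLC, GCLM and AKR1B10 passed with neither.

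**Figure D2:**
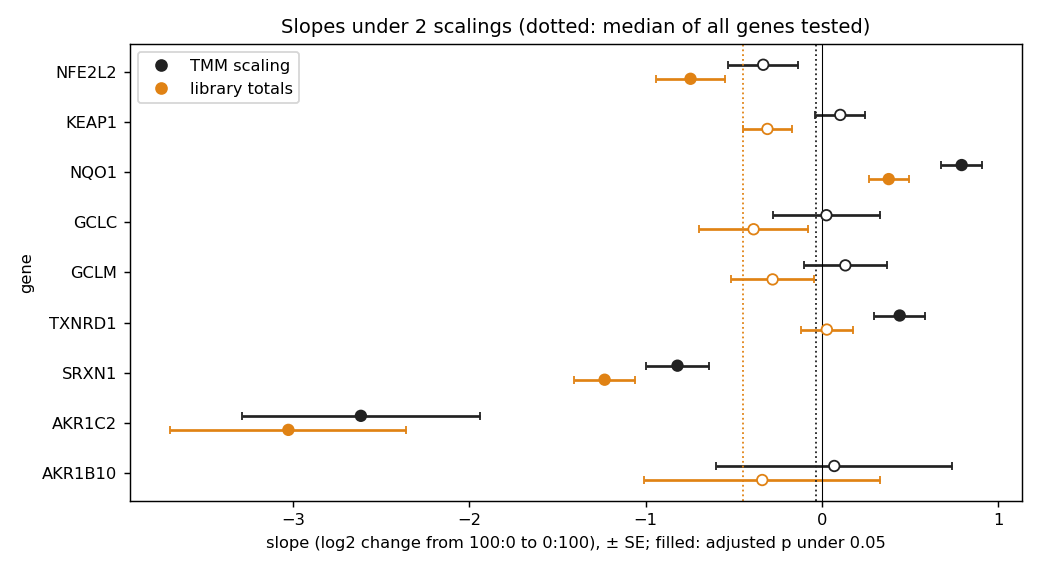
Slope of log2 expression from 100:0 to 0:100 (horizontal axis) for the 9 tested members, with TMM scaling and with library totals, filled points for adjusted p under 0.05 in the edgeR quasi-likelihood test and bars for 1 standard error. NQO1, SRXN1 and AKR1C2 are filled with both scalings, TXNRD1 with TMM only (0.44 against 0.03) and NFE2L2 with library totals only, while KEAP1, GCLC, GCLM and AKR1B10 flip sign between them.

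Among the members' transcripts, 24 had enough reads and 6 passed the edgeR quasi-likelihood test, beside 33.6% of 31758 transcripts. All 6 belonged to members called as genes. They were NQO1-201 (slope 0.81), NQO1-202 (0.80) and NQO1-203 (0.70), which rose, and SRXN1-201 (-0.88), AKR1C2-201 (-2.15) and AKR1C2-202 (-2.54), which fell. With library totals 5 passed, of which 1 rose and 4 fell, beside 37.6% of all transcripts.

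The 7 members with more than 1 tested transcript gave 0 calls of a shift in isoform usage by diffSpliceDGE of edgeR, beside 0.429% of 7456 genes, with 0 of the 7 at an unadjusted Simes p under 0.05, beside 3.93% of genes, and 0 calls by the gene-level F test, beside 0.912%. The full-length NQO1-201, which codes for 274 residues, took 38.7% of NQO1 reads in 100:0 and 42.1% in 0:100, and NQO1-203, which codes for 240, took 35.6% and 34.6%. NFE2L2 reads were spread over several transcripts that code for 582 to 605 residues. NFE2L2-201 took 28.0% and 29.7%, NFE2L2-202 took 21.8% and 23.4%, and NFE2L2-209 took 23.3% and 22.9%. KEAP1 reads lay on KEAP1-201, which codes for all 624 residues, with 39.6% and 38.7%, on KEAP1-202, which codes for 624 residues as well, with 19.8% and 18.2%, and on KEAP1-210, a model of 3 exons that codes for 171, with 40.1% and 42.5%. Of the bases of KEAP1-210, 100% lie within KEAP1-201, so a partial read of KEAP1-201 can match both. How much of the KEAP1-210 share came from such reads was not tested. KEAP1-201 reached 52.3% in the 25:75 library. TXNRD1-204 took 43.6% and 42.6%, and TXNRD1-210 16.2% and 15.7%. GCLM-201 had 70.8% and 80.0% of GCLM reads and GCLM-204 had 27.8% and 20.0%. GCLC-214, the full-length catalytic subunit of 637 residues, had 27.4% and 40.0% of GCLC reads and GCLC-205 had 35.5% and 24.4%. Each of these shares rests on few reads. SRXN1 had 1 listed transcript, and AKR1C1-202 held 27 of the 32 AKR1C1 reads of the series.

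**Figure D3:**
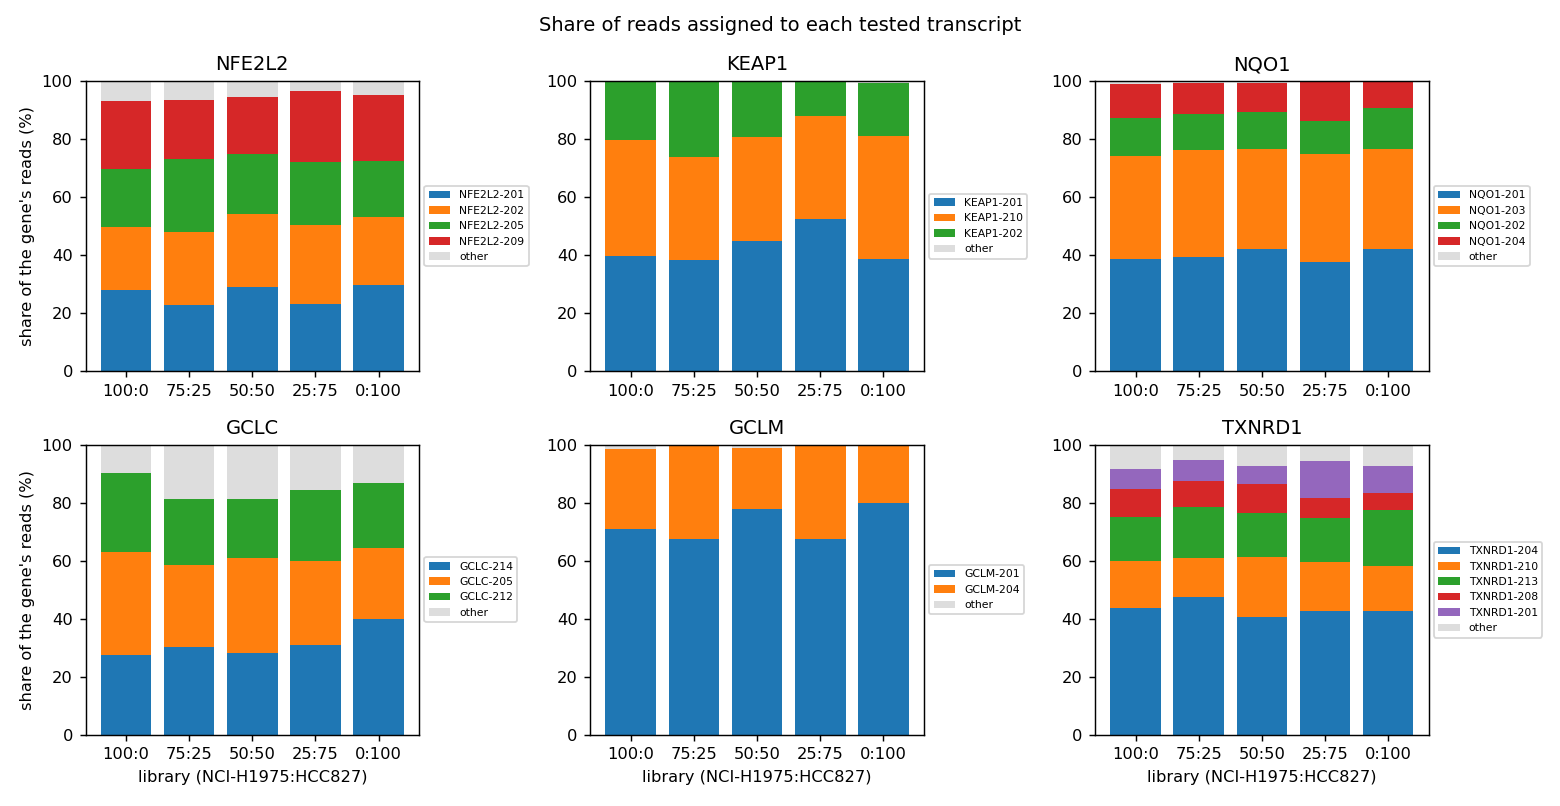
Share of a gene's reads, in percent, on each tested transcript (stacked bars, grey for the rest) in the 5 libraries (horizontal axis), for 6 of the members with more than 1 tested transcript. NQO1-201 goes from 38.7% to 42.1% between the pure libraries, and the 52.3% of KEAP1-201 in 25:75 stands above its other libraries.

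Of 49 other genes of the pathway listed by role, 44 were tested, of which 21 rose, 6 fell and 17 did not pass, beside 23.5% of all genes that rose and 22.3% that fell. With library totals 14 of the 44 rose and 13 fell, beside 13.4% and 37.9% of all genes. The median slope of the list was 0.36 against -0.03 over all genes. Among the regulators around KEAP1 and NRF2, 2 of 8 rose, near the 23.5% of all genes, and 0 fell, beside 22.3%. The 2 were MAFG, a small MAF partner of NRF2 (slope 0.62 ± 0.18 SE), and SQSTM1, which binds KEAP1 (0.35 ± 0.12 SE). With library totals 0 of the 8 rose and 3 fell, beside 13.4% and 37.9% of all genes. With that scaling MAFG (0.21) was not called and SQSTM1 (-0.06) flipped sign. By the edgeR quasi-likelihood test MAFG was lost without 100:0 (adjusted p = 0.0872) and without 0:100 (adjusted p = 0.0503), and SQSTM1 was lost without any one of the libraries other than 25:75 (adjusted p from 0.0513 to 0.400).

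Around GCLC and GCLM, 8 of 13 glutathione genes rose and 2 fell, beside 23.5% and 22.3% of all genes. With library totals 7 rose and 3 fell, beside 13.4% and 37.9%. The largest slopes were those of the conjugate exporters ABCC2 (3.01 ± 0.61 SE, from 1 read in 100:0 to 58 in 0:100) and ABCC3 (1.94 ± 0.18 SE, 27.8 to 114 CPM) and of the glutathione peroxidase GPX2 (2.65 ± 0.60 SE, 3 to 22 reads). SLC7A11 and SLC3A2, the chains of the cystine and glutamate exchanger that feeds glutathione synthesis, were picked out after their values were seen. SLC7A11 fell from 52.0 to 21.5 CPM (slope -1.29 ± 0.20 SE) and SLC3A2 rose from 141 to 310 (slope 1.16 ± 0.11 SE).

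Beside TXNRD1 and SRXN1, 2 of 3 thioredoxin genes rose, beside 23.5% of all genes, or 1 of 3 beside 13.4% with library totals. Those that rose under TMM were PRDX6 (193 to 415 CPM, slope 1.10 ± 0.12 SE) and PRDX1, a substrate of sulfiredoxin (513 to 716 CPM, slope 0.47 ± 0.11 SE), which was not called with library totals (0.05) or with the length trend removed (0.16). Of the genes that supply NADPH, 5 of 6 rose and 0 fell, beside 23.5% and 22.3% of all genes. With library totals 3 rose and 1 fell, beside 13.4% and 37.9%. The pentose phosphate enzymes TKT (353 to 1293 CPM, slope 1.81 ± 0.16 SE), PGD (53.2 to 104 CPM, slope 0.96 ± 0.15 SE) and TALDO1 (95.4 to 176 CPM, slope 0.80 ± 0.14 SE) had the largest slopes.

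In the haem and iron group 2 of 4 rose and 1 fell, beside 23.5% and 22.3% of all genes. With library totals 1 rose and 2 fell, beside 13.4% and 37.9%. HMOX1, the haem oxygenase that is a target of NRF2 and is repressed by BACH1, had 429, 415, 257, 128 and 32 reads and 128, 97.6, 66.9, 45.4 and 12.1 CPM. It dropped at every step, with a slope of -2.68 ± 0.30 (SE; adjusted p = 2.08e-05, edgeR quasi-likelihood test) and -3.10 with library totals, opposite to NQO1. BLVRB, a biliverdin reductase, rose (33.5 to 78.5 CPM, slope 1.37 ± 0.19 SE), and the ferritin light chain FTL rose (slope 0.43 ± 0.12 SE) but was not called with library totals (0.01), with the length trend removed (0.12) or without the 0:100 library (adjusted p = 0.0770, edgeR quasi-likelihood test).

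Of 10 carbonyl and xenobiotic enzymes 7 were tested, of which 1 rose and 2 fell, near the 23.5% and 22.3% of all genes. With library totals 1 rose and 3 fell, near 13.4% and 37.9%. PTGR1 fell (76.2 to 33.6 CPM, slope -1.07 ± 0.18 SE), EPHX1, the microsomal epoxide hydrolase, rose (39.2 to 86.0 CPM, slope 0.91 ± 0.19 SE), and CBR1, a carbonyl reductase, fell (63.7 to 43.0 CPM, slope -0.47 ± 0.18 SE). The CBR1 call was lost with the DESeq2 Wald test (adjusted p = 0.148) and with limma-voom (adjusted p = 0.0568). It was also lost in the edgeR quasi-likelihood test without any one of the libraries other than 75:25 (adjusted p from 0.0521 to 0.419). Of the aldo-keto paralogs, AKR1B1, the aldose reductase, fell from 532 to 98.9 CPM (slope -2.27 ± 0.20 SE) and AKR1A1, an aldehyde reductase, rose from 23.3 to 129 CPM (slope 2.24 ± 0.21 SE).

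**Figure D4:**
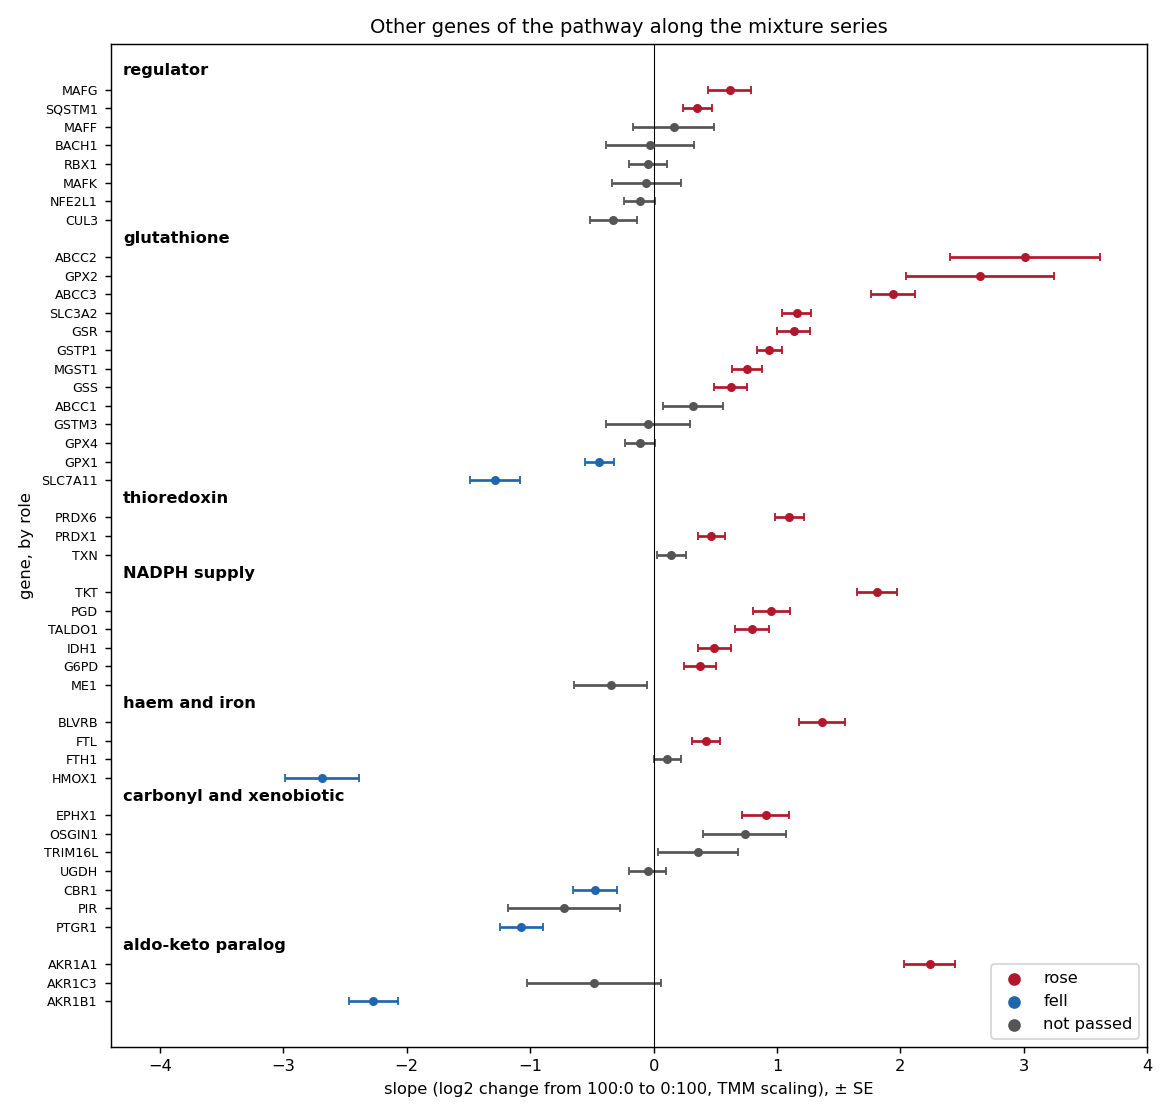
Slope of log2 expression from 100:0 to 0:100 (horizontal axis, TMM scaling) for the 44 other pathway genes tested, grouped by role, with bars for 1 standard error, red for those that rose, blue for those that fell and grey for those that did not pass the edgeR quasi-likelihood test. Genes lie on both sides of 0 in every group but the thioredoxin genes, from HMOX1 at -2.68 to ABCC2 at 3.01. With library totals 14 of the 44 rose and 13 fell, beside 13.4% and 37.9% of all genes.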

How the data were processed

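Poly(A) RNA of the lines was mixed and sequenced as 5 nanopore cDNA libraries, 1 per ratio. The authors deposited 1 table per library with transcript lengths and an estimated count of reads per transcript, unscaled. Per the submitters' processing notes, minimap2 2.24, Salmon 1.9.0 and GRCh38 were used, with roles, annotation release and use of strand not given in the sources used here. Identifiers listed a second time (161) were summed, counts were rounded to whole reads, and transcripts were summed to genes through GENCODE v44, which matched 224076 of 227751 human transcripts with 98.6% of human reads. For 12 of the 86 member transcripts the GENCODE length differed from the deposited one.

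Slopes on the HCC827 mass fraction were tested with TMM scaling by quasi-likelihood in edgeR 4.0.16 under R 4.3.3, over genes with at least 10 reads in at least 2 libraries, with Benjamini-Hochberg adjustment over all of them and a threshold of 0.05. Isoform usage was tested with diffSpliceDGE, transcripts with the same slope test. The standard error is the slope over the square root of its F statistic. P-values measure only the spread of these libraries about the trend, since each line gave 1 RNA preparation. Library totals were 2932250 to 4058751 reads, no molecular identifiers were given, and intervals cover counting error only. The code was tested on simulated data. In the simulated slopes few genes changed, as many up as down, so the choice of scaling was not tested there.

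Alternatives were DESeq2 1.42.0 size factors and Wald test, library totals, limma 3.58.1 voom, other read minimums, removal of the length trend, protein-coding transcripts only, summed paralogs and each library left out. The members and lists were chosen with earlier results of these data known. All members were named. Of the other pathway genes, up to 3 called genes with the largest slope in each role were named by rule, and all aldo-keto paralogs. SLC7A11 and SLC3A2 were named outside this rule, after their values were seen. Transcripts were those with most reads per member, up to 2, and those that passed. Promoters were taken from RefSeq starts read on GRCh38 (hg38) and coding sequences from GENCODE v44. No protein sequences were used here.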

Additional observations from a re-analysis of the deposited data

How the results depend on the processing

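With the 0:100 library left out, the number of members called went from 4 to 1 and that of member transcripts from 6 to 3. The number called over all genes also went down, from 6172 of 13492 tested to 4068 of 13352. With each library left out in turn, 1 to 4 members, 3 to 7 member transcripts and 21 to 26 other pathway genes were called. In these fits 4068 to 5859 genes were called in all, of 13081 to 13383 tested. For isoform usage 0 members were called, beside 5 to 23 genes in all. In the other alternatives 3 or 4 members, 4 or 5 member transcripts and 25 to 27 pathway genes (27 in the main test) were called. The genes called in all were then 4791 to 6922, of 10884 to 26426 tested. Isoform usage again gave 0 members, beside 22 genes in all with 10 reads in every library and 68 with the gene-level F test. Over all transcripts, 10660 of 31758 were called in the main test and 11955 with library totals. For the other fits that total was not available, so their member transcript counts cannot be set beside a background. Of 116 member slopes under an alternative, 91 kept direction and side of the threshold, 9 lost the call, 2 gained it (both NFE2L2) and 14 changed sign. All 14 belonged to members that did not pass in either case, and the cause was not tested. With library totals the slope was -0.31 for KEAP1, -0.39 for GCLC, -0.28 for GCLM and -0.34 for AKR1B10. With the length trend removed it was -0.039 for KEAP1 and -0.21 for AKR1B10. GCLC turned to -0.028 with 10 reads required in every library, to -0.0014 with no read minimum, and to -0.11 with protein-coding transcripts only. Without 0:100, GCLC was at -0.11 and AKR1B10 at -0.72. Without 75:25, GCLC was at -0.17 and AKR1B10 at -0.084. With each library left out, GCLC ranged from -0.17 to 0.52 and AKR1B10 from -0.72 to 0.86. Summed with AKR1B15, AKR1B10 was at -0.84. No paired analysis was possible because each ratio had 1 library. Read counts under about 100 limit what could be detected for GCLC, GCLM and the aldo-keto reductases.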
